A study of Homo sapiens with 8 samples.

Results

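The 59 genes described here are cell cycle genes chosen by symbol from the 36601 genes of the count matrices, and all 59 were found. By the phase in which their transcripts are known to peak they were taken as 34 G2/M genes, 22 S phase genes and 3 G1 cyclins (CCNE1, CCND1 and CCND2). The rule uses no measured value. All 59 were abundant enough to pass the low-count filters of both tests.

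A dividing cell copies its DNA in S phase and separates the copies in mitosis (M), with gaps called G1 and G2 before each. D-type cyclins act with CDK4 and CDK6 in G1 and relieve the block that RB proteins place on E2F transcription factors, which switch on replication genes. Later, MuvB complexes with B-MYB or FOXM1 switch on the genes of mitosis. In mammary epithelial cells the growth factor TGF-β is known both to slow G1 and to induce epithelial-to-mesenchymal transition (EMT), in which cells lose epithelial and gain mesenchymal features.

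The cells were HMLE, mammary epithelial cells of human origin made immortal in culture, studied for intermediate states of TGF-β induced EMT and for the part played in it by G-quadruplexes, folded DNA structures that the ligand pyridostatin binds. The 12 samples were each marked with a short barcoded oligonucleotide (SBO01 to SBO12) and read together by 10x Genomics 5′ single-cell sequencing in 4 mRNA libraries. No label says which barcode marks TGF-β, pyridostatin or a given time. Treated and untreated cells were therefore not compared, and populations are named by their barcode. The first 6 barcodes occurred in libraries 1 and 2 and the last 6 in libraries 3 and 4. Each population was thus measured in 2 libraries, which were taken as 2 loads of the same cell pool. This reading rests on the barcodes detected, 6 in each library, where the sample labels give 12 barcoded samples. Pool and library cannot be told apart. On that reading the spread between the libraries of a population is technical. The p-values of the population tests measure that spread and not that between cultures. Those of the last test, between tiers of a score, measure how the tier difference varied over the 4 libraries of both pools. As the 2 libraries of a pool were taken as loads of the same cells, the 4 are not independent replicates. That spread, and any SD over the 4 libraries, is therefore in part technical.

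Of 26247 cell barcodes, 22147 were kept, with medians of 22198.5 to 38051 unique molecular identifiers (UMIs, counted molecules) per cell in the 4 libraries, and 11072 carried a single sample barcode. Populations held 352 (SBO04) to 1864 (SBO05) cells. Between 347 and 369 cell barcodes were shared by the libraries of a pool, and 584 of the single-barcode cells carried a cell barcode seen in another library. In SBO12 another barcode had more UMIs than SBO12 itself in 774 of 1227 cells, so its results are also given without those cells. The same held in 156 of 525 cells of SBO11, 114 of 564 of SBO02, 103 of 1718 of SBO01 and 58 of 352 of SBO04. In the other populations it held in fewer cells. A rule taking only cells with a clearly dominant barcode gave SBO08 2962 cells instead of 863. The 12 mammary epithelial markers were all detected, with a summed level of 2057 CPM (UMIs scaled to a common total) in SBO05 against a median of 14028 over the populations. Summed leukocyte and endothelial markers reached at most 4.33 and 4.41 CPM, with CD3E and MS4A1 at 0 in all cells, and summed stromal fibroblast markers ran from 52.0 CPM (SBO12) to 319 CPM (SBO05).

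The first question was whether the genes separated cells by phase. Each cell with at least 10000 UMIs was thinned to that depth and scored by the mean standardised level of the S genes and of the G2/M genes. The higher score gave the class if it was above 0, and the remaining cells were put in neither class. This gave 4282 cells (41.8%) in the S class, 3873 (37.8%) in the G2/M class and 2078 (20.3%) in neither, with median depths of 28702, 30874 and 29570 UMIs. These classes are ranges of a score and not cell types, and the higher score of 1819 cells (17.8%) lay within 0.1 of the threshold. To describe a gene, the classes were called again without it. The other genes still share the cells and the libraries with it, so the levels that follow are a description with no test, and the part of free RNA in them was not tested.

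Of the 34 G2/M genes, 33 were highest in the G2/M class, with a median log2 ratio of G2/M over S class of 1.34 over all 34. Among the cyclins and kinases, PLK1, the Polo kinase that drives entry into and passage through mitosis, had the widest ratio. Its level was 315 ± 16.4 CPM in the G2/M class, 44.9 ± 3.5 in the S class and 73.0 ± 8.01 in neither (mean ± SD, n = 4 libraries). AURKA, the kinase of the spindle poles, followed with 315 ± 10.9, 48.8 ± 2.17 and 63.5 ± 5.0 CPM. CCNB1, the mitotic cyclin, was at 488 ± 43.6 CPM in the G2/M class, 130.5 ± 7.08 in the S class and 191 ± 5.30 in neither. In these 3 genes the order of the classes held in each library, and the S class lay below the cells of neither class. CDK1, the kinase that cyclin B activates, was ordered differently, with 182 ± 24.6 CPM in the G2/M class, 103 ± 9.66 in the S class and 67.0 ± 5.89 in neither.

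The kinetochore and spindle genes showed the same pair of patterns. CENPE, a kinetochore motor, had a log2 ratio of G2/M over S class of 2.27 and CENPA, the centromeric histone, one of 2.11, and both were lower in the S class than in neither (-0.25 and -0.24). NDC80, which ties kinetochores to microtubules, and KIF11, the motor that pushes spindle poles apart, were instead higher in the S class than in neither, by 0.36 and 0.40. TOP2A, which untangles DNA, stood at 254 ± 29.5 CPM in the G2/M class and 76.7 ± 8.48 in the S class. MKI67, the proliferation marker Ki-67, stood at 343 ± 49.8 and 168 ± 15.1 CPM. The weakest separations were those of CKS1B (0.50) and BIRC5, which encodes survivin (0.70), and CBX5, a heterochromatin protein, showed none, with 80.6 ± 6.53 CPM in the G2/M class and 80.8 ± 8.26 in the S class.

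All 22 S phase genes were highest in the S class, with a median log2 ratio of G2/M over S class of -0.94. CCNE2, the E-type cyclin that starts replication with CDK2, was the most restricted. It stood at 55.0 ± 6.98 CPM in the S class, 23.4 ± 1.80 in neither and 10.1 ± 1.16 in the G2/M class. UNG, which removes uracil from DNA, and DTL, which marks proteins for destruction at replicating DNA, followed with ratios of -1.62 and -1.58. Of the helicase subunits, MCM5 and MCM6 (-1.35 and -1.32) were more unequal than MCM2 and MCM4 (-0.82 and -0.74). PCNA, the sliding clamp of the replication fork, stood at 349 ± 2.14 CPM in the S class, 223 ± 2.97 in neither and 163 ± 7.34 in the G2/M class. The nucleotide enzymes kept more transcript in the G2/M class: RRM1, RRM2 and TYMS had ratios of -0.19, -0.54 and -0.48, and RPA2, which coats single-stranded DNA, one of -0.41.

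The G1 cyclins did not share a pattern. CCNE1 was highest in the S class in all 4 libraries. It was at 21.3 ± 2.53 CPM there, against 14.4 ± 1.09 in neither and 6.15 ± 1.02 in the G2/M class. CCND1 was at 215 ± 13.8 CPM in neither, 199.7 ± 25.9 in the S class and 201 ± 25.6 in the G2/M class, and CCND2 at 155 ± 9.90, 151 ± 26.9 and 135 ± 20.5 CPM. CCND2 was lower in the G2/M class than in neither in 4 of 4 libraries and in 11 of 12 populations, all but SBO08. For CCND1 the same held in 3 of 4 libraries and 6 of 12 populations. The level in the S class was below that in neither in 2 of 4 libraries for CCND2 and 3 of 4 for CCND1, and in 5 of 12 populations for each. Genes outside the 59 fell on the side of their function: 45 of 46 other replication genes were highest in the S class and 48 of 50 other mitosis genes in the G2/M class.

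**Figure D1:**
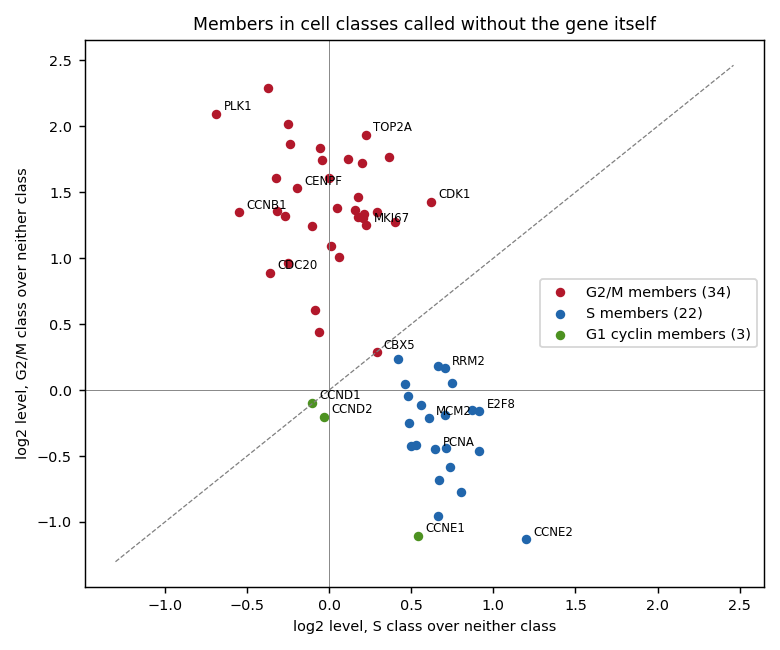
Each point is 1 of the 59 genes, at its log2 level in the S class over neither class (x axis) and in the G2/M class over neither class (y axis), as means over 4 libraries. The S genes lie below the dashed line of equal levels and the G2/M genes above it, except CBX5, which lies on it, and CCND1 and CCND2 lie near 0.

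The genes that moved together also differed in the letters of their promoters. Windows of 300 bases, from 250 before to 50 after the transcription start, were taken from RefSeq (GRCh38.p14) and matched 47 of the 59 genes, 29 of them G2/M genes and 17 S genes. A gene with several starts was counted once if any window held the motif. The CHR element, the site of MuvB complexes, was searched on both strands as TTTGAA or TTCGAA and was present in 23 of 29 G2/M genes (79.3%), in 3 of 17 S genes (17.6%) and in 19.5% of all 27305 genes. The E2F motif, searched as TTTGGCGC or TTTCGCGC, was present in 6 of 17 S genes (35.3%), 2 of 29 G2/M genes (6.90%) and 1.40% of all genes. CCAAT, the site of the factor NF-Y, was present in 24 of 29 G2/M genes (82.8%), 12 of 17 S genes (70.6%) and 39.7% of all genes. CHR and CCAAT occurred in the same gene in 20 of 29 G2/M genes, 3 of 17 S genes and 9.02% of all genes. No searched motif contains another, and a match is a description and not a bound site.

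To show the contrast between the groups, 5 of these promoters are given; they were chosen after the matches were seen. Each is printed 5′ to 3′ on the strand of its gene, from 250 bases before the start to 30 after it, with the 3 motifs in capitals on either strand. The first 3 belong to G2/M genes and the other two to S genes.
PLK1, chr16:23678639-23678918, plus strand: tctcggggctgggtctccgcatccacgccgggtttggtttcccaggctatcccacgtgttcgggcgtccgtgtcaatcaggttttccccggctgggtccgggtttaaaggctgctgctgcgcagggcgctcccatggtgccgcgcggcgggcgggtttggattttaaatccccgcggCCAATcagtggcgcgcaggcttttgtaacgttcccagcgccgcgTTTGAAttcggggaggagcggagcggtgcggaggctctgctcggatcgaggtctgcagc
TOP2A, chr17:40417867-40418146, minus strand: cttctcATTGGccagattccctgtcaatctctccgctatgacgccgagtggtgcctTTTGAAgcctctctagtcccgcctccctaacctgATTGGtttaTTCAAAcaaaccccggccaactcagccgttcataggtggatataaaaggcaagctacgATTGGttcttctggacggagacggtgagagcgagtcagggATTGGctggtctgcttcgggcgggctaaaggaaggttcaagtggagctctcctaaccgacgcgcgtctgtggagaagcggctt
CDK1, chr10:60778081-60778360, plus strand: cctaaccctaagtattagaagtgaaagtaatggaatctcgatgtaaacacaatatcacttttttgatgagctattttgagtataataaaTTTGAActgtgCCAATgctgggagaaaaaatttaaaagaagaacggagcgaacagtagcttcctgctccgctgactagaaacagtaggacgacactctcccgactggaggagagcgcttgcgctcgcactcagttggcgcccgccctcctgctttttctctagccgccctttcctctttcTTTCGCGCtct
MCM2, chr3:127598161-127598440, plus strand: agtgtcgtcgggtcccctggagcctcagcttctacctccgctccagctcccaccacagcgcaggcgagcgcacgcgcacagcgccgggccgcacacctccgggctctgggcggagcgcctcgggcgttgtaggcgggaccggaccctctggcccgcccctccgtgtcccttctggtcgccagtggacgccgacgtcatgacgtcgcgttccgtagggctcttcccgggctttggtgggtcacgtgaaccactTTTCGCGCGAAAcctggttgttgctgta
CDC6, chr17:40287629-40287908, plus strand: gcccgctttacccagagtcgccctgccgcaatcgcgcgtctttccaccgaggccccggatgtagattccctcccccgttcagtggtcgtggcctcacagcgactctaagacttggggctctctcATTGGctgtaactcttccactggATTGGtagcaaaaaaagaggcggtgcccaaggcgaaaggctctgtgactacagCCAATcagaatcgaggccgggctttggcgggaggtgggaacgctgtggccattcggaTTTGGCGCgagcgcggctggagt
PLK1 carries 1 CHR element that begins 29 bases before its start and 1 CCAAT that begins 73 bases before it. TOP2A, which had the third largest rise in SBO05 below, carries 2 CHR elements and 4 CCAAT boxes. CDK1 carries both a CHR element and an E2F motif. MCM2, a helicase subunit, has a pair of E2F motifs that overlap each other on opposite strands, and CDC6, which loads the helicase, has 1 E2F motif and 3 CCAAT boxes. Neither of the S genes has a CHR element in its window.

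The classes were then compared between populations. SBO05 stood apart by its share of cells in neither class: 50.3% of its 1726 scored cells were in the S class (exact Clopper-Pearson 95% interval 47.9 to 52.7%, counting error only) and 10.4% in neither (8.97 to 11.9%). Its libraries gave 10.3% and 10.5% in neither. In the other populations the S class held 36.4% (SBO07) to 45.2% (SBO04) of cells, and the intervals of SBO04 (39.5 to 51.0%) and SBO03 (41.1 to 48.3%) overlapped that of SBO05. There neither class held 19.2% (SBO01) to 27.5% (SBO10) of cells. The G2/M class ran from 32.0% (SBO04) to 41.7% (SBO01), with SBO05 at 39.3%. SBO05 also had the lowest median depth of the populations, 20861.5 UMIs, against 35406 in SBO12, and the part of depth beyond the thinning was not tested.

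Summed levels over the genes set SBO05 apart as well. In such sums more cells in a phase and more transcript per cell cannot be told apart. The 22 S genes together made up 2249 CPM (SBO07) to 2915 CPM (SBO05), with a median of 2352, and the 34 G2/M genes 4558 CPM (SBO04) to 5825 CPM (SBO05), with a median of 4770. SBO05 was the highest in both sums, and without it the span over populations fell from 1.30-fold to 1.09-fold for S and from 1.28-fold to 1.17-fold for G2/M. SBO01, SBO12 and SBO11 were next in G2/M, at 5311, 5225 and 5058 CPM. Their S sums were 2339, 2377 and 2293 CPM, which was the highest of the second pool for SBO12 (pool median 2306) but below the pool median for SBO01 and SBO11. The log2 ratio of S over G2/M sums was accordingly lowest in SBO01 (-1.18, with -1.17 and -1.19 in its libraries), SBO11 (-1.14) and SBO12 (-1.14), and highest in SBO04 (-0.90, with -0.95 and -0.85). In SBO05 it was -1.0, near the median of -1.03, so both sums were high there together. The range of 0.28 exceeded the widest gap between the libraries of a population, 0.14 in SBO06. By other rules for assigning cells SBO12 had the lowest ratio. The highest was still SBO04 without the cells in which another barcode was higher. It was SBO10 by the rule taking only cells with a clearly dominant barcode.

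**Figure D2:**
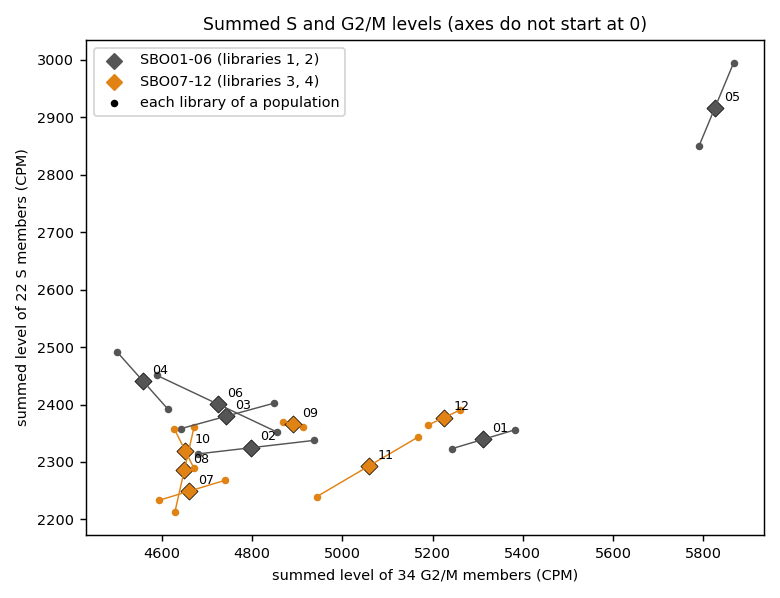
Summed CPM of the 34 G2/M genes (x axis) and of the 22 S genes (y axis) in each population, with diamonds for the population, small points for each of its libraries and lines joining them. SBO05 lies apart at 5825 and 2915 CPM, and SBO01, SBO11 and SBO12 lie to the right of the others at similar S sums.

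Each gene was tested for differences among the 6 populations of a pool with edgeR's quasi-likelihood test on summed counts and Benjamini-Hochberg adjustment over all genes, at a threshold of 0.05. In libraries 1 and 2, 57 of the 59 genes passed, all but TTK and UNG, where 79.5% of all genes did. In libraries 3 and 4, 39 of 59 passed (24 G2/M genes, 12 S genes and all 3 G1 cyclins), against 44.1% of all genes. The differences were smaller than those of most genes: the median log2 range over populations was 0.49 for G2/M and 0.38 for S genes in the first pool, where that of all genes was 0.58, and 0.26 and 0.19 in the second, where it was 0.34. The G1 cyclins were the exception, with medians of 1.65 and 0.48. Without SBO12 the count in the second pool fell from 39 to 16, and the share of all genes from 44.1% to 14.8%.

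SBO05 had the most calls of any population, 54 of the 59 genes, and without it 40 of 59 genes still differed within the first pool (51.0% of all genes). Against the mean of the other 5 populations on the log scale, 30 of 34 G2/M genes were higher and 2 lower in SBO05 (median 0.34), and 18 of 22 S genes were higher and 1 lower (median 0.24), while 37.4% of all genes were higher and 33.8% lower. All 3 G1 cyclins were lower. These counts were the same without the cells whose cell barcode was seen in another library, and in no SBO05 cell did another sample barcode have more UMIs. Directions were counted for SBO05, SBO01 and SBO12 because their values stood out, after all 12 contrasts had been run alike. Each contrast shares its comparison populations with the others of the pool, so they are not independent.

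Among the G2/M genes CDC25C, the phosphatase that activates CDK1, rose most in SBO05. Its level was 32.5 and 32.6 CPM in the SBO05 libraries against 14.4 to 19.2 CPM in the other 11 populations, with a log2 change of 0.92 ± 0.05 (SE, adjusted p = 7.6e-15). TOP2A stood at 223 and 243 CPM, against 121 to 145 CPM elsewhere (0.77 ± 0.05, adjusted p = 2.13e-14). CDK1 was at 191 and 192 CPM, above the 109 to 135 CPM of the others (0.62 ± 0.04). None of these ranges overlapped. KIF11 (0.73) and CENPF, a kinetochore protein (0.60), rose likewise, and MKI67 rose by 0.42, from 201 to 256 CPM elsewhere to 323 CPM. PLK1 rose by 0.46 and CCNB1 by 0.51, but SBO01 and SBO12 were also high in CCNB1 (327 and 312 CPM against 361 CPM in SBO05). The 2 genes that fell were CKS1B, a small subunit of CDK complexes (-0.20), and KIF23, a motor of cytokinesis (-0.12). AURKA (142 CPM against a median of 145 over the populations) and UBE2C, which carries ubiquitin to mitotic proteins, did not pass.

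Among the S genes TYMS, which makes thymidylate, rose most in SBO05, to 342 and 373 CPM, where the other populations lay between 189.6 and 239.5 CPM (0.85 ± 0.04, adjusted p = 9.59e-18). UHRF1, which keeps DNA methylation through replication, stood at 101 and 127 CPM against 51.0 to 73.0 CPM (0.74 ± 0.04). MCM2 stood at 98.9 and 107 CPM against 59.6 to 67.9 CPM (0.66 ± 0.04), MCM5 rose by 0.59 and MCM6 by 0.56. The groups did not overlap in these genes. MCM4, a subunit of the same helicase, fell (-0.22), and CDC6, UNG and E2F8 did not pass. RRM2 rose by 0.29 to 423 CPM, from a median of 357 over the populations, and PCNA by 0.09. CCNE2 rose by 0.22 to 38.3 CPM, where the lowest population was at 25.5 CPM (SBO11) and the median at 31.0.

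Levels within the phase classes are given as a description. In the G2/M class SBO05 had the highest level of its pool in 25 of 34 G2/M genes and 17 of 22 S genes, and in the S class in 19 and 14. In neither class it was the highest in 3 and the lowest in 20 of the 34 G2/M genes, but the highest in 12 and the lowest in 3 of the 22 S genes.

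**Figure D3:**
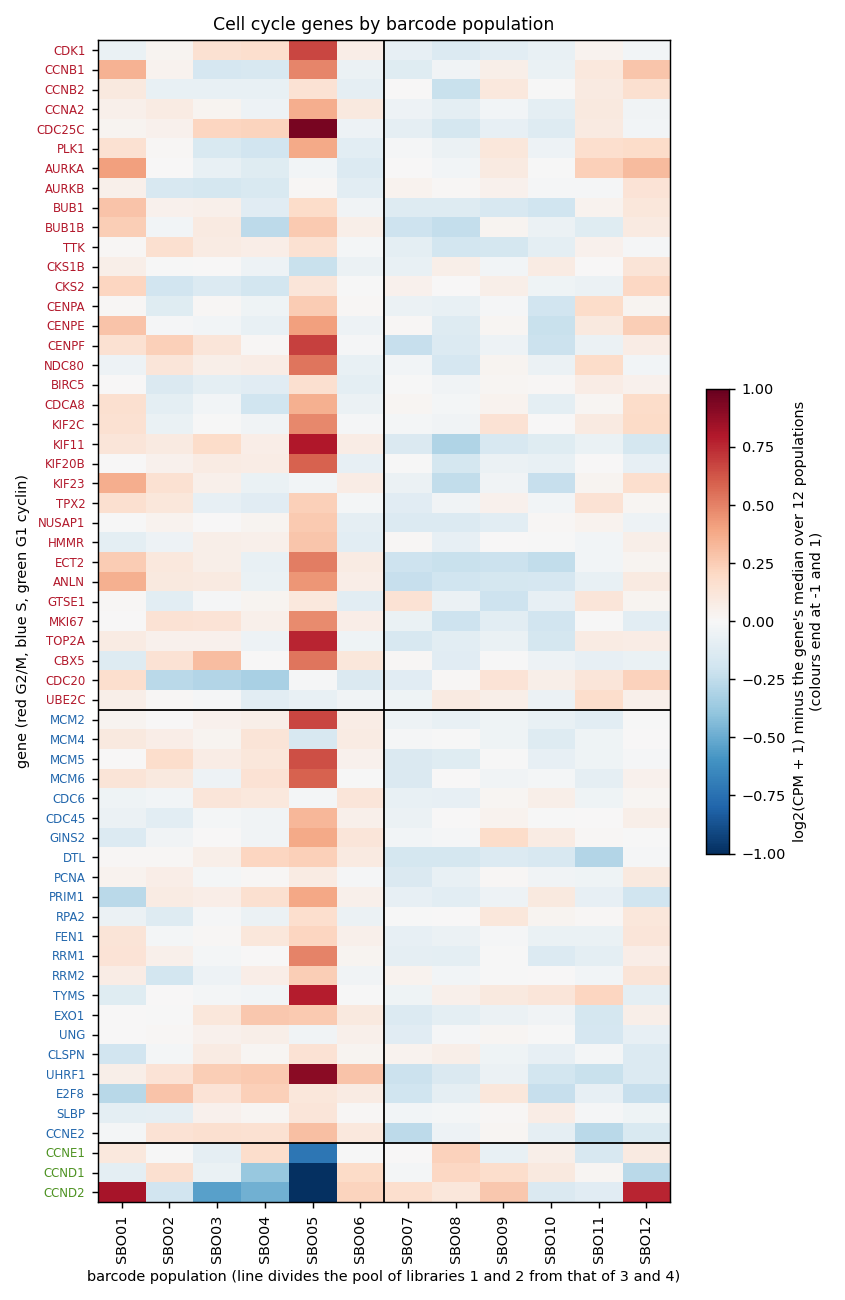
Colours give log2(CPM + 1) of each of the 59 genes (rows) in each population (columns) minus the gene's median over the 12 populations. Most G2/M and S genes are red in SBO05, and the G1 cyclins in the last 3 rows are blue there.

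Of the 59 genes CCND2 and CCND1 had the widest ranges over populations (log2 3.69 and 1.67), and SBO05 was their low end. CCND2 (cyclin D2, chr12:4273772-4305350, plus strand, GRCh38) was at 20.5 and 13.1 CPM in the libraries of SBO05, against 89.9 (SBO03) to 233 CPM (SBO01) in the other populations and a median of 132 over all. The log2 change in SBO05 was -2.89 ± 0.10 (SE, adjusted p = 1.4e-20). SBO01 (218 and 249.6 CPM) and SBO12 (226 and 222 CPM) formed the top, and no other population exceeded 159 CPM. CCND1 (cyclin D1, chr11:69641087-69654474, plus strand) was at 81.5 and 76.8 CPM in SBO05, against 169 (SBO04) to 255 CPM (SBO08) elsewhere, a change of -1.41 ± 0.05. CCNE1 (cyclin E1, chr19:29811898-29824308, plus strand) was at 7.91 and 8.55 CPM in SBO05, against 12.6 (SBO11) to 16.8 CPM (SBO08), a change of -0.81 ± 0.08. SBO05 was the lowest of its pool in all 3 phase classes for each of these genes: CCND2 was there at 15.5 to 19.7 CPM, and CCND1 at 68.4 to 97.0 CPM.

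**Figure D4:**
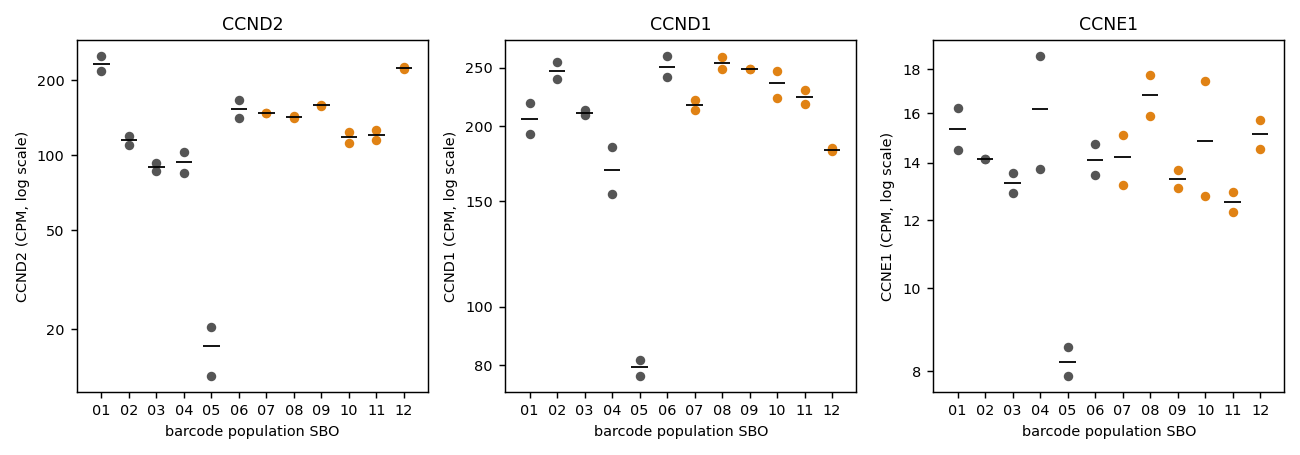
CPM of CCND2, CCND1 and CCNE1 on log axes in the 12 populations, with a point for each library and a line at the population's level (grey, libraries 1 and 2; orange, libraries 3 and 4). SBO05 lies below all other populations in each panel, and SBO01 and SBO12 are the highest for CCND2 only.

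SBO01 differed in its G2/M genes but not in the same way in its S genes. Of the G2/M genes 19 were higher and 3 lower (median 0.19), of the S genes 5 were higher and 7 lower (median -0.02; 4 lower without library 2), and all 3 G1 cyclins were higher, where 28.7% of all genes were higher and 25.3% lower. The largest rises were those of AURKA, at 190.1 and 196 CPM (0.58 ± 0.04), CDC20, the activator of the anaphase-promoting complex (0.48 ± 0.03), KIF23 (0.43 ± 0.04) and CCNB1 (0.42 ± 0.03). CKS2, a partner of CDK1, rose by 0.39 ± 0.02. E2F8, a repressor of E2F targets (-0.38 ± 0.08), and PRIM1, a primase subunit (-0.34 ± 0.05), fell most. CCND2 rose by 1.72, or by 1.19 without SBO05 among the comparison populations. Without SBO05 the counts were 26 higher and 1 lower for G2/M and 7 higher and 3 lower for S genes, and CCND1 no longer passed (0.03, adjusted p = 0.55). Of all genes 53.9% then passed in either direction. The fit's scaling placed SBO01 higher than plain CPM by a median of 0.10 (log2). On plain CPM the medians were 0.09 for G2/M and -0.12 for S genes beside -0.10 for all genes.

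SBO12 had 20 G2/M genes higher and 0 lower (median 0.16), 10 S genes higher and 1 lower (median 0.09), and CCND2 higher and CCND1 lower, where 23.1% of all genes were higher and 21.4% lower. The S count moved with the library and the tool, and so did the share of all genes. By DESeq2 6 S genes were higher, and 30.9% of all genes passed in either direction, against 44.5% in the main test. The count and the share also fell without library 3 or 4, each of which left 1 sum per population. CENPE (0.33 ± 0.05) and CCNB1 (0.33 ± 0.03) rose most among the G2/M genes, and CCND2 rose by 0.75 ± 0.06 while CCND1 fell by 0.33. Without the cells in which another barcode was higher, 453 cells remained. The G2/M counts were then 24 higher and 0 lower, the S counts 4 higher and 4 lower, and CCND2 rose by 0.85. Of all genes 32.5% then passed in either direction. A rule that takes only cells with 1 clearly dominant barcode left 98 cells of SBO12. By it 8 G2/M genes were higher and 0 lower, 2 S genes were higher and 3 lower, and CCNB1 turned to -0.056. Of all genes 11.9% passed by this rule in either direction.

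In the other 9 populations the genes were counted in either direction. SBO02 had 30 of 59 (23.0% of all genes), SBO03 24 (25.8%), SBO04 19 (11.8%), SBO06 20 (20.7%), SBO07 10 (10.2%), SBO08 6 (11.8%), SBO09 3 (4.72%), SBO10 5 (7.79%) and SBO11 6 (7.68%). In the second pool the counts of SBO07 to SBO11 were thus 3 to 10 genes. In the first pool the counts include the distance to SBO05. Without it they fell to 10 in SBO02 (13.9% of all genes), 9 in SBO03 (16.3%), 11 in SBO04 (6.09%) and 6 in SBO06 (6.75%), and the call of CCND2 in SBO02 turned from higher to lower (-0.26). In all 9 populations the count and the share of all genes also fell when a library of the pool was left out. Each population of that pool then had 1 sum. In SBO02 the median log2 change of the G2/M genes was -0.14, and -0.09 without library 1 and -0.16 without library 2. That of its S genes was -0.15, and -0.15 and -0.13. Without SBO05 among the comparison populations the medians were smaller, -0.07 for G2/M and -0.08 for S genes. On plain CPM, with SBO05 kept, they were -0.08 and -0.09, beside 0.05 for all genes.

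The last comparison followed a mesenchymal minus epithelial score within populations. Cells of each population and library were divided into 3 tiers of equal size by the mean level of 12 mesenchymal minus 12 epithelial genes, none of them among the 59, and the high tier was compared with the low one with library as a block. The genes changed little: 25 of 59 passed, 21 higher and 4 lower in the high tier, where 17.3% of all genes were higher and 15.4% lower. Of these, 12 G2/M and 8 S genes were higher and 1 of each was lower. The medians were 0.07 for G2/M and 0.07 for S genes, beside 0.01 for all genes. The share of cells in the S class was 40.4% ± 2.46 in the low, 42% ± 2.28 in the middle and 41.8% ± 5.97 in the high tier (SD, n = 4 libraries), and in the G2/M class 37.6% ± 1.62, 38.1% ± 1.2 and 37.8% ± 1.64. The S share did not move alike in the libraries: from the low to the high tier it went from 42.8% to 45.1% and from 41.9% to 48.5% in libraries 1 and 2, but from 39.7% to 38.0% and from 37.3% to 35.6% in libraries 3 and 4. The middle tier was above the low one in 4 of 4 libraries. Median depth was 31858 UMIs in the low and 30095 in the high tier, and its part was not tested.

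CCND2 changed most, from 109.6, 113, 131 and 135 CPM in the low tier of libraries 1 to 4 to 124, 153, 198 and 186 CPM in the high tier. It was higher in 4 of 4 libraries (log2 0.44 ± 0.05, SE, adjusted p = 2.8e-07). CCND1 moved the other way, with a mean of 207 ± 19.5 CPM in the low and 192 ± 27.6 CPM in the high tier (-0.10 ± 0.03, adjusted p = 0.0211), lower in 3 of 4 libraries. CCNE1 fell by 0.21 ± 0.07, also in 3 of 4 libraries. E2F8 was at 13.2, 15.1, 13.4 and 12.5 CPM in the low tier and 12.4, 11.3, 10.3 and 9.49 CPM in the high tier (-0.30 ± 0.07, adjusted p = 0.00131). CDK1 (0.17 ± 0.03), TOP2A (0.17 ± 0.03), CDC25C (0.17 ± 0.05), CKS2 (0.16 ± 0.03), MCM2 (0.15 ± 0.03), CDC45, a helicase cofactor (0.13 ± 0.03), and CLSPN, a fork protein (0.11 ± 0.03), were higher in all 4 libraries. MKI67 fell by 0.09 ± 0.03, while PLK1, RRM2, CCNE2, CENPF, PCNA and MCM5 did not pass.

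**Figure D5:**
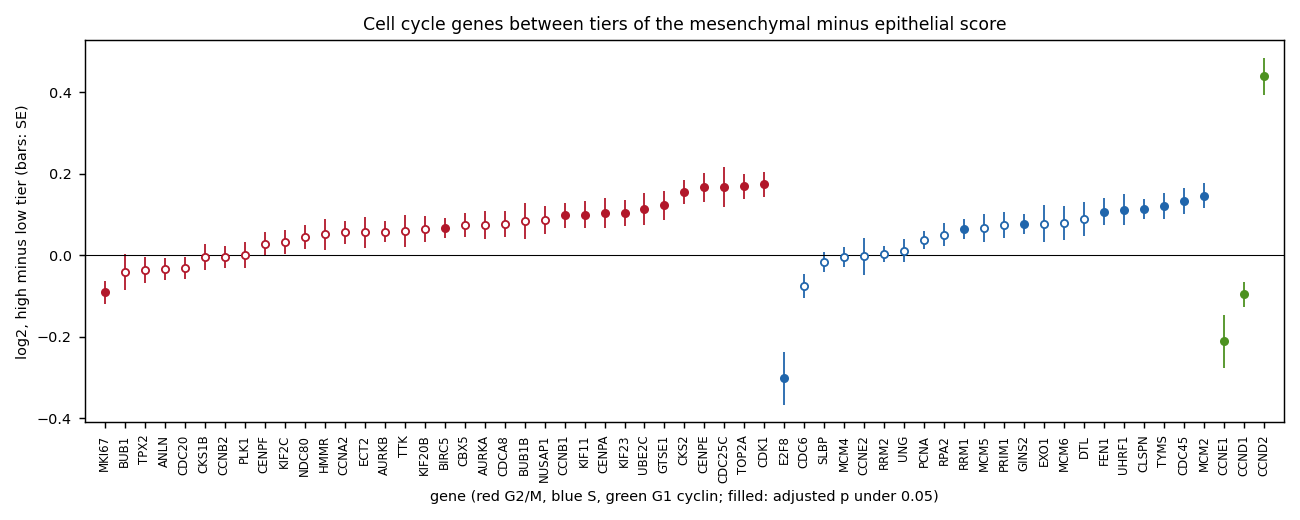
Log2 difference between the high and low tier (points, with SE as bars) for the 59 genes, filled where the adjusted p was under 0.05. Apart from CCND2 at 0.44, E2F8 at -0.30 and CCNE1 at -0.21, all points lie between -0.10 and 0.17.

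These calls rest on the pairing of tiers within a library. Without library as a block 2 of the 59 genes passed (8.66% of all genes) and CCND2 did not (0.46, adjusted p = 0.10). The counts were 16 by DESeq2 (20.9% of all genes) and 14 with cells thinned to equal depth (22.2%). Without library 3 the count was 14 (26.4% of all genes). In that setting and without the block the share of the 59 lay below that of all genes. When tiers were cut over a whole library, which lets populations differ between tiers, CCND2 turned to -0.39 (adjusted p = 0.70), MKI67 to 0.12 and CCND1 to -0.80.

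Other genes of the cycle were counted between the tiers in the same way, beside the 17.3% of all genes that were higher and the 15.4% that were lower. Of 46 other replication genes 20 were higher (43.5%) and 1 lower (2.17%, median 0.09), led by RFC4, a clamp loader subunit (0.25 ± 0.03). Of 50 other mitosis genes 21 were higher (42%) and 5 lower (10%, median 0.07), led by CKAP2L, a spindle protein (0.34 ± 0.05). Of 18 CDK inhibitors and quiescence genes 4 were higher (22.2%) and 8 lower (44.4%). CDKN1A, which encodes the CDK inhibitor p21, fell by 0.34 ± 0.07 and KLF4 by 0.52 ± 0.07, while CDKN2C, an inhibitor of CDK4 and CDK6, rose by 0.40 ± 0.04. Of 16 G1 kinases, cyclins and E2F factors 3 were higher (18.8%) and 2 lower (12.5%), shares near those of all genes, with CDK6 (0.16 ± 0.03) and CDK4 (0.15 ± 0.02) up and E2F2 down by 0.74 ± 0.14.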

How the data were processed

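UMI counts per gene and cell were deposited by the authors as 1 raw matrix per mRNA library, with the sample barcodes as further rows. The submitters' processing notes name Seurat 4.1.0, Cell Ranger 6.0.2 and bcl2fastq 2.20.0.422, and the build hg38. Strand handling before deposit is not given in the sources, so TYMS (antisense to ENOSF1) and CKS1B (with pseudogene copies) are less certain. A 5′ kit reads transcript starts.

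Kept cells had 1000 or more genes and no more than 15% mitochondrial UMIs. They were assigned within libraries by HTODemux (Seurat 5.3.0, quantile 0.99, barcodes on top in at least 1% of cells); doublets (5510) and cells without a barcode (5565) were left out, and pairs of cells of 1 sample remain. Counts were summed into 24 population and 12 tier columns and tested with edgeR 4.0.16 (filterByExpr, TMM, quasi-likelihood, library as a block, 15113 and 15800 genes), with common coefficients of variation of 3.18% and 2.82%. The block stands because sums of 1 library share its preparation; same-library deviations correlated at -0.02 to 0.10 for populations and 0.51 to 0.60 for tiers. The fits were tested on simulated data. Intervals cover counting error only.

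Genes described were all 59, with fixed genes and, per test, the 3 of each phase with the lowest p or largest change. Coordinates are from GENCODE 29. The members and lists were chosen with earlier results of these data known.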

Additional observations from a re-analysis of the deposited data

Results flagged for a closer look

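In 31 values compared over the 4 libraries, 1 library lay apart by Dixon's test at its 95% value, which chance passes in about 1 of 20 groups. It was the change of E2F8 between the high and low tier, -0.080 in library 1 against -0.35 to -0.39 in the others, a gap of 0.87 of the range. E2F8 had few UMIs, with 9.49 to 15.1 CPM in the tiers.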

How the results depend on the processing

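The counts passing were 57 and 39 of the 59 genes for differences within the pools. They were 247 of 708 tests of a gene in 1 of the 12 population contrasts, and 25 genes for the tiers. Beside them 79.5%, 44.1%, 24.4% and 32.7% of all genes passed. Without the replicate block the counts were 52, 28, 178 and 2, beside 74.6%, 32.4%, 19.8% and 8.66% of all genes. DESeq2 gave 16 for the tiers (20.9% of all genes) and thinned cells 14 (22.2%). Leaving out 1 mRNA library at a time gave 19 to 43 in the second pool (19 without library 4, 23 without library 3) and 14 to 20 for the tiers (14 without library 3). Without library 3 or 4 the share of all genes passing in the second pool fell as well. Each population of that pool then had 1 sum, so these falls are not specific to the 59 genes. Without SBO12 16 genes passed in the second pool (14.8% of all genes). Without SBO05 145 of 649 tests of a gene in a population contrast passed (17.1% over all genes). The leave-out of SBO05 or SBO12 from the population contrasts and of shared cell barcodes was chosen after seeing the data. Leaving out shared cell barcodes gave 57, 41, 235 and 22, beside 79.7%, 43.0%, 23.8% and 32.5% of all genes. The range of the log2 ratio of S over G2/M was 0.28, and 0.23 to 0.34 when 1 library was left out. The range of the share of cells in neither class was 17.1 percentage points, 29.1 with a score threshold of 0.25, 7.72 without SBO05 and 17.0 to 20.5 without 1 library. With CHR searched as TTTGAA only, 75.9% of G2/M genes held it, instead of 79.3%.

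Directions turned, with none passing except CCND2 in SBO02, for CCND2 (-0.39) and MKI67 (0.12) with tiers over a whole library. By the top barcode rule, a highest barcode of at least 10 UMIs and 3 times the next, they turned for CCNB1 (-0.056) and DTL (-0.31) in SBO12 and NDC80 (2.45e-04) in SBO08. Without SBO05 they turned for CCND2 in SBO02 (-0.26), CCND1 in SBO03 (-0.066) and TYMS in SBO06 (0.050). The cause was not tested.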
